A study of Mus musculus with 6 samples.

Results

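The POU homeodomain genes were followed in RNA from the heads of E8.5 mouse embryos on Affymetrix mouse Gene ST arrays. Each sample pooled 4 heads, with 3 pools of Jarid1b heterozygotes and 3 of Jarid1b knockouts. All embryos were on a C57BL/6 background and received no treatment. The knockout was constitutive, made by deleting a loxP-flanked Jarid1b exon with Cmv-cre and intercrossing the resulting heterozygotes. The heterozygotes therefore served as controls and themselves carried a single intact Jarid1b allele. A probe set was a member if its only gene symbol in the annotation of the array was that of 1 of 8 named POU genes. For 6 of these 8 genes, 7 rows were found, since Pou3f2 has 2, out of 21789 rows for 19938 genes in all. Pou2f1 and Pou4f2 had no such row and were not analysed here. The set was chosen by its log2 intensities in these same pools, because Pou3f2 was higher in all knockout pools. The differences between the genotypes are therefore given for the members as a description, with no test.

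POU proteins bind DNA through a bipartite domain, in which a POU-specific part and a homeodomain each contact part of the site, the best known site being the octamer. Class III members (Pou3f1 to Pou3f4) act mostly in the nervous system, often on composite sites beside Sox proteins. Pou3f2, also known as Brn2, acts in neural progenitors and in the specification of hypothalamic and cortical neurons. Pou4 factors mark sensory and other projection neurons, and Pou5f1 (Oct4) maintains pluripotent cells and is switched off in the embryo around the early somite stages.

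The stretches just upstream of the transcription start are shown for the class III genes with an entry in the RefSeq promoter table (build GRCm38.p6), since these close relatives of Pou3f2 are the ones its values are set beside. Each is the 250 bases before the start, written 5′ to 3′ on the strand of the gene, with every CCAAT, on either strand, in capitals.
Pou3f2, chr4:22488367-22488616, minus strand: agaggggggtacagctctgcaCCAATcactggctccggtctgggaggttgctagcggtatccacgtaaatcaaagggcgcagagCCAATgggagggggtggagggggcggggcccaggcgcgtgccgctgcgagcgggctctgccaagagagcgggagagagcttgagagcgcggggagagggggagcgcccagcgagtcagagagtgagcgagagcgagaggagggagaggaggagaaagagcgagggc
Pou3f3, chr1:42695518-42695767, plus strand: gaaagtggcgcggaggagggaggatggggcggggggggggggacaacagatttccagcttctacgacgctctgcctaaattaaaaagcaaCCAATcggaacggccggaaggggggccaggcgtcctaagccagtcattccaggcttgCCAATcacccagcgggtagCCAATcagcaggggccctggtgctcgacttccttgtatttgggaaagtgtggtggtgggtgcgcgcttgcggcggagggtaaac
Pou3f4, chrX:110814129-110814378, plus strand: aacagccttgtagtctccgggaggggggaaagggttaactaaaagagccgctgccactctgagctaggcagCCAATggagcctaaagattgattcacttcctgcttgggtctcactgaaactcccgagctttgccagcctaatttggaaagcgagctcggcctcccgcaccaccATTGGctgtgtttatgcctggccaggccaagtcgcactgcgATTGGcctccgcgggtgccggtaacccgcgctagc
The CCAAT pentamer, chosen after the sequences were seen, occurs 2 times upstream of Pou3f2, at 229 and 166 bases before the start. It occurs 3 times each upstream of Pou3f3 and Pou3f4. Of 32851 promoter entries, 33.9% hold at least 1 CCAAT on either strand and 10.1% hold 2 or more in the same window. The octamer ATGCAAAT and the TATA sequence TATAAA, each searched on both strands, are in none of these 3 windows and in 1.60% and 12.4% of all promoter entries. The dinucleotide CG occurs 18 times upstream of Pou3f2, 15 times for Pou3f3 and 13 times for Pou3f4, against a median of 6 over all promoter entries. Fewer are held by 78.3%, 72.7% and 68.5% of all entries, so these counts are not extreme. No readout of these arrays bears on the bases themselves, and the matches are a description of the letters.

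The targeted gene checked the labels. Jarid1b, on the array as Kdm5b, had a log2 intensity of 9.17, 9.12 and 9.16 in the heterozygote pools and of 7.63, 7.47 and 7.71 in the knockout pools. The log2 fold change was -1.55 with a standard error of 0.07 (limma, adjusted p = 6.29e-04). It was the only call among 21789 probe sets at an adjusted p under 0.05, which is 0.00459% of those tested. At an unadjusted p under 0.05, 5.97% of probe sets (1301) were higher and 4.66% (1016) lower in the knockout pools. This excess of higher values depended on the processing, with 895 higher and 900 lower after quantile normalization. All 8 neuroepithelial markers examined (Sox1, Sox2, Sox3, Cdh2, Nes, Pax6, Otx2 and Lhx2) lay above the median log2 intensity of all probe sets, 6.45, in every pool.

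Pou3f2 was the member whose genotypes stood apart. The brighter of its rows had a log2 intensity of 5.49, 5.50 and 5.59 in the heterozygote pools and of 5.85, 5.81 and 5.94 in the knockout pools. Every knockout pool lay above every heterozygote pool, with a gap of 0.21 between the lowest knockout and the highest heterozygote. Heterozygotes averaged 5.53 ± 0.06 (SD, n = 3 pools) and knockouts 5.86 ± 0.07 (SD, n = 3). Their difference, 0.34 on the log2 scale (standard error 0.06), corresponds to 1.26-fold.

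The dimmer row of Pou3f2 gave 4.88, 5.0 and 4.67 in the heterozygote pools and 5.12, 6.01 and 5.70 in the knockout pools. Here too the genotypes did not overlap, but the gap was 0.12 and knockout replicate 1 lay close to the heterozygotes. The log2 fold change was 0.76 with a standard error of 0.21, or 1.69-fold, from 4.85 ± 0.17 (SD, n = 3) to 5.61 ± 0.45 (SD, n = 3). By size of increase, the contrast that chose the gene, this row was number 8 of 21789 and the brighter row number 134. Most rows above the dimmer row were globins (Hbb-bh1, Hba-x and Hbb-y) or Y-linked genes (Eif2s3y, Uty and Kdm5d). The dimmer row was thus among the 0.0367% of probe sets over 1.5-fold higher in the knockout means. The study, in contrast, names Jarid1b alone as changed over 1.5-fold on its arrays. It used Gene Array Analyzer, and the source of this difference was not tested. The log2 fold change of the dimmer row was 1.0 without knockout replicate 1 and 0.56 without knockout replicate 2.

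The rows agreed in direction and differed in how the pools were ordered. In the knockouts the dimmer row was highest in replicate 2, where the brighter row was lowest. Across the 6 pools, the deviations from the genotype means had a Pearson r of -0.31 between the 2 rows, given as a description. The spread within a genotype was 0.34 for the dimmer row, against a median of 0.11 for the 3483 probe sets within 0.5 of its mean log2 intensity, and 99.1% of these had a smaller spread. For the brighter row it was 0.06 against a median of 0.11, and 12.6% had a smaller spread. The annotation pairs both rows with the same RefSeq transcript, and the stretch of it that each row measures was not analysed here.

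**Figure D1:**
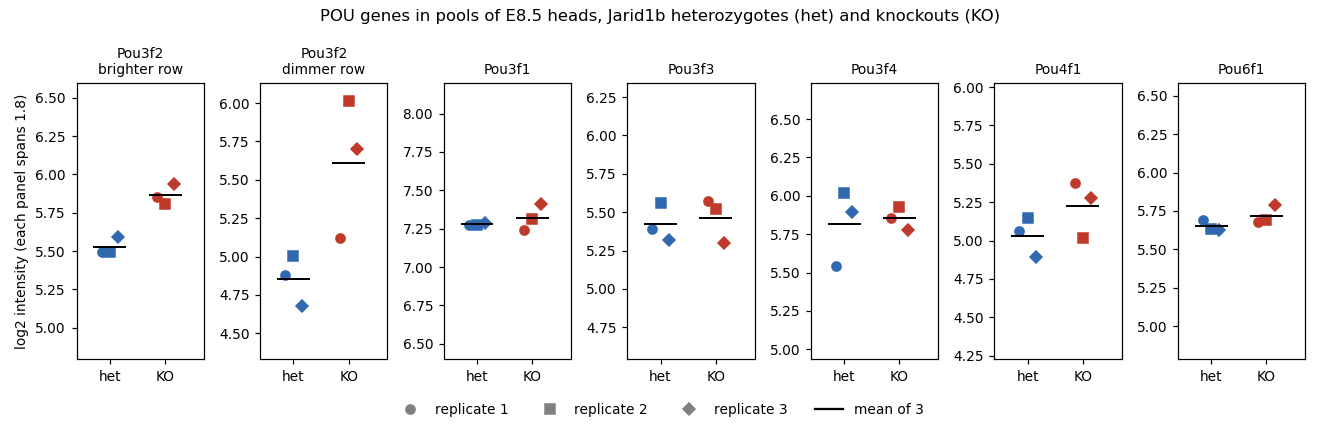
Log2 intensity of the 7 rows in each pool, colored blue for heterozygotes and red for knockouts. Each symbol is 1 replicate, and a horizontal line gives the genotype mean. The genotypes do not overlap for the 2 Pou3f2 rows and overlap for the other 5 rows.

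The other class III genes showed no such separation. Pou3f1 (Oct6), known for its roles in early neural fate and in myelinating Schwann cells, was the brightest member row, at 7.27, 7.28 and 7.29 in heterozygotes and 7.24, 7.31 and 7.41 in knockouts. Its heterozygote pools spanned only 0.01 and the knockout pools 0.16 around them. The log2 fold change was 0.04 with a standard error of 0.06.

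Pou3f3 (Brn1), which acts with Pou3f2 in the cortex, had a log2 intensity of 5.39, 5.56 and 5.32 in heterozygotes and 5.57, 5.52 and 5.30 in knockouts. The genotypes interleaved over nearly the same range, and the log2 fold change was 0.04 with a standard error of 0.09. Pou3f4 (Brn4), an X-linked gene of the neural tube and inner ear, gave 5.54, 6.02 and 5.90 in heterozygotes and 5.85, 5.93 and 5.78 in knockouts. All its knockout pools fell inside the heterozygote range, and the log2 fold change was 0.03 with a standard error of 0.12. These small values had no stable sign. Pou3f3 and Pou3f4 were at -0.01 or closer to 0 on the negative side after quantile or cyclic loess normalization, and each of the 3 genes was negative when 1 or 2 particular pools were left out singly.

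Outside class III, Pou4f1 (Brn3a), a factor of sensory neurons, had a log2 intensity of 5.06, 5.14 and 4.89 in heterozygotes and 5.38, 5.01 and 5.28 in knockouts. Knockout replicates 1 and 3 lay above all heterozygote pools and replicate 2 among them. The log2 fold change was 0.19 with a standard error of 0.11. Pou6f1, a class VI factor found in the nervous system and elsewhere, had 5.69, 5.63 and 5.63 in heterozygotes and 5.68, 5.69 and 5.79 in knockouts. The log2 fold change was 0.07 with a standard error of 0.06, and only knockout replicate 1 lay within the heterozygote range.

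Over the members, 2 of 7 rows, both of Pou3f2, had every knockout pool above every heterozygote pool, as did 8.03% of all probe sets tested. No row had every knockout pool below every heterozygote pool, a pattern of 9.03% of all probe sets. Without knockout replicate 1 the count was 4, with Pou3f1 and Pou6f1 added. The share of all probe sets was not computed for that setting, and fewer pools separate more easily. For Pou6f1 the margin was slight, with 5.691 in knockout replicate 2 against 5.690 in heterozygote replicate 1. The contrast chose the members, so nothing is read from these counts. The median log2 fold change was 0.07 over the 7 rows and 0.04 over the 5 rows of other genes, against -0.00072 over all probe sets.

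Intensity moved with these values. Of the 7 rows, 6 lay below the median log2 intensity of 6.45, and dim probe sets as a group leaned higher in the knockout pools. Probe sets within 0.5 of the mean log2 intensity of each of these 6 rows had a median log2 fold change between 0.04 and 0.06. The values of Pou3f3, Pou3f4 and Pou6f1, from 0.03 to 0.07, were close to those medians. Around Pou3f1, the median was -0.04. After quantile normalization, the log2 fold change of Pou3f2 was 0.29 for the brighter and 0.70 for the dimmer row. The count of member rows without overlap was 2 there, and the share of all probe sets was not computed for that setting.

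**Figure D2:**
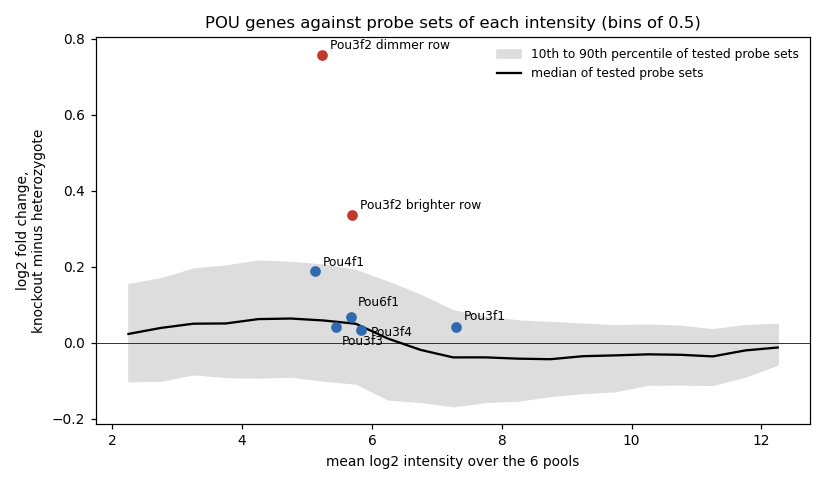
Log2 fold change, knockout minus heterozygote, against mean log2 intensity over the 6 pools, for the 7 member rows (Pou3f2 in red, others in blue), with the median (line) and the 10th to 90th percentile (gray band) of all tested probe sets in bins of 0.5. The 2 Pou3f2 rows lie above the band at 0.34 and 0.76, and the other rows lie inside it.

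The other POU genes were 6 measured genes, including the B-cell coactivator Pou2af1, which is not itself a POU gene. In limma, 0 of the 6 passed at either the adjusted or the unadjusted threshold of 0.05. Their median log2 fold change was 0.05, from -0.28 for Pou5f1 to 0.15 for Pou2af1. Pou2f2 (Oct2), known from B cells and neurons, was at 0.09 with a standard error of 0.07 and an adjusted p of 0.69 in limma. Pou2f3, a factor of epidermal and tuft cells, was at 0.03, the inner ear factor Pou4f3 at -0.02 and the testis-expressed Pou5f2 at 0.08, with standard errors of 0.07, 0.14 and 0.11.

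Pou5f1 differed more between pools than between genotypes. Its log2 intensity was 7.93, 7.63 and 8.08 in heterozygotes and 8.14, 7.10 and 7.56 in knockouts, so that the highest and the lowest pools were both knockouts. The log2 fold change was -0.28 with a standard error of 0.24 (limma, adjusted p = 0.71). Within each genotype the pools ran in the reverse order of the dimmer Pou3f2 row. Heterozygote replicate 3 was the highest for Pou5f1 and the lowest for the dimmer row, and replicate 2 the opposite. Knockout replicate 1 was the highest for Pou5f1 and the lowest for the dimmer row, and replicate 2 the opposite. The brighter Pou3f2 row did not run in reverse. Heterozygote replicate 3 was its highest heterozygote pool and knockout replicate 2 its lowest knockout pool, as for Pou5f1. The reverse order was noticed in the data and was not tested. Mouse Pou5f1 has processed pseudogenes of near-identical sequence, so its values are uncertain where they share probes.

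**Figure D3:**
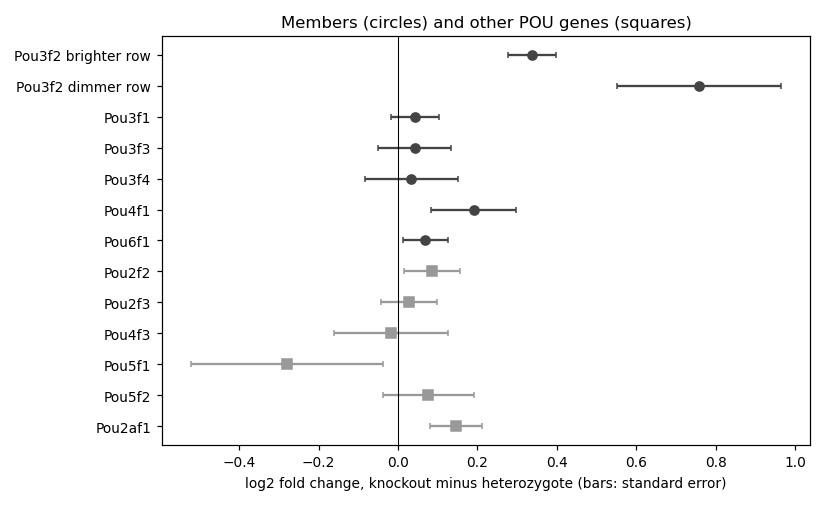
Log2 fold change, knockout minus heterozygote, with bars for the standard error from limma, for the 7 member rows (circles) and the 6 other genes of the POU list (squares). The values run from -0.28 for Pou5f1 to 0.76 for the dimmer Pou3f2 row.

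Genes known to work with or under POU factors gave the surroundings of Pou3f2. The 5 lists, the other POU genes included, held 47 different genes, of which 41 were measured. The limma fit called 0 of the 41 after adjustment (smallest adjusted p = 0.356). At an unadjusted p under 0.05, 7 had higher values in knockouts and 2 lower, or 17.1% and 4.88%, beside 5.97% and 4.66% of all probe sets. The lists were chosen with earlier results of these data known, so no enrichment is read from these shares. Of the 7, Crh, Neurog1 and Zic1 were dim, in ranges where the median log2 fold change of all probe sets was 0.05. The rest of the 7 lay above the median intensity of all probe sets. The median log2 fold change of the 41 genes was 0.03.

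Among 12 genes known to be regulated by POU3 factors, 4 were higher at an unadjusted p under 0.05 and none lower, with a median of 0.01. The radial glia gene Fabp7, whose promoter holds a POU site, had 8.43, 8.26 and 8.33 in heterozygotes and 8.64, 8.62 and 8.82 in knockouts, without overlap. Its log2 fold change was 0.35 with a standard error of 0.07 (limma, adjusted p = 0.356). Egr2 (Krox20), a rhombomere and Schwann cell factor that lies downstream of Pou3f1 in Schwann cells, had 9.16, 9.46 and 9.30 in heterozygotes and 9.57, 9.55 and 9.50 in knockouts. Its log2 fold change was 0.24 with a standard error of 0.08 (limma, adjusted p = 0.413).

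The hormone gene Crh, which Pou3f2 activates in the hypothalamus, was very dim, at 3.18 ± 0.01 (SD, n = 3) in heterozygotes and 3.37 ± 0.11 (SD, n = 3) in knockouts. Zic1, a zinc finger factor of the dorsal neural tube, was at 0.21 with overlapping groups. On the other side were the Notch ligand Dll1 at -0.13, Mitf, a pigment cell factor, at -0.12 and Otx2 at -0.08. The progenitor genes Sox2 at 0.01 and Nes at -0.04, which carry known POU and Sox enhancer sites, were near 0. Otx2, a forebrain and midbrain factor, had every knockout pool below every heterozygote pool.

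Of the 8 Sox genes, which encode the usual partners of POU proteins on DNA, only Sox1 had an unadjusted p under 0.05. Its log2 intensity was 6.46, 6.64 and 6.50 in heterozygotes and 6.62, 6.72 and 6.86 in knockouts, with a log2 fold change of 0.20 and a standard error of 0.08 (limma, adjusted p = 0.443). The list ran from Sox4 at -0.12 to Sox1, with a median of 0.03.

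Among 8 measured genes linked to POU4 factors, the median was -0.03. Isl1, a LIM homeobox gene of sensory and motor neurons, was lower in every knockout pool, at 8.28, 8.25 and 8.27 in heterozygotes against 8.22, 8.06 and 7.95 (log2 fold change -0.19, standard error 0.07, limma adjusted p = 0.442). The highest gene was Ntrk3, a neurotrophin receptor, at 0.12.

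Of 8 measured cofactors and proneural partners, the Notch effector Hes5 was at 0.23 and the proneural factor Neurog1 at 0.21, both with an unadjusted p under 0.05. Another Notch effector, Hes1, was at -0.20, also with an unadjusted p under 0.05, so that the Hes genes of the list differed in sign. The median of this list was 0.12.

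**Figure D4:**
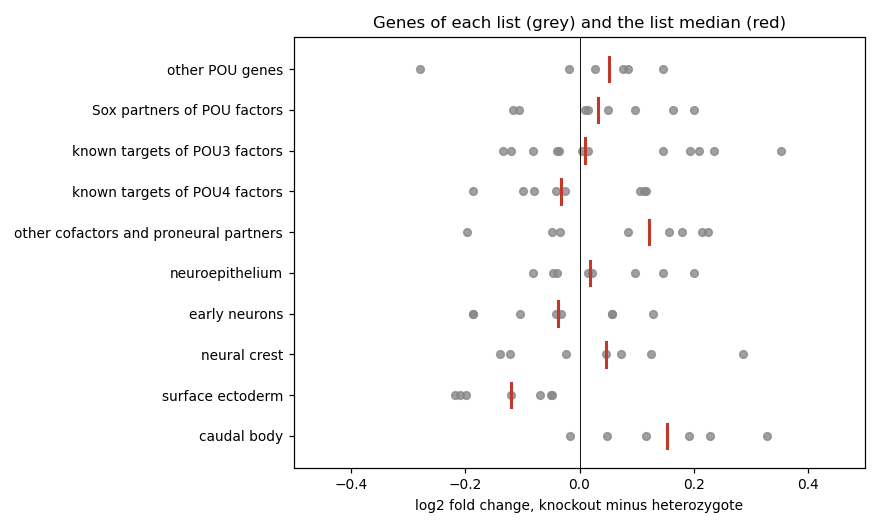
Each gray point is 1 measured gene, placed by its log2 fold change (knockout minus heterozygote), on 5 POU-linked lists and 5 lists of cell type markers. Red bars are list medians. Fabp7 at 0.35 is the highest point, and every point of the surface ectoderm list lies below 0.

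Other tissues in the heads varied between pools, and their part in the Pou3f2 values was not tested. Of 6 measured primitive blood markers, all had a positive log2 fold change, from 0.06 for Alas2 to 1.66 for Hbb-bh1. The embryonic globin Hba-x was at 7.02, 6.18 and 6.99 in heterozygotes and at 7.02, 10.09 and 7.78 in knockouts. Its knockout pools stood in the same order as the dimmer Pou3f2 row, with replicate 2 highest and replicate 1 lowest, while its heterozygote pools did not. The linear intensities of the blood list summed to 238 to 343 in heterozygotes and 323 to 1816 in knockouts. The visceral endoderm sum was 3426 in knockout replicate 3, against 6605 to 7804 in the other 5 pools, and its gene Apom was at 7.35 there and at 8.78 to 9.10 elsewhere. All 7 genes of that list had a negative log2 fold change, from Apom at -0.64 to Apoa4 at -0.21.

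For 3 lists of markers, the summed level separated the genotypes, upward for the caudal body and downward for the surface ectoderm and the early neurons. The sums of the other marker lists overlapped between the genotypes. Among single probe sets, 8.03% had every knockout pool above every heterozygote pool and 9.03% had every one below. A linear sum weighs the brightest genes most. The caudal body sum, over 6 measured genes, was 266 to 281 in heterozygotes and 305 to 310 in knockouts. In this list Wnt3a, a signal of the tail bud and the dorsal neural tube, was at 5.83, 5.78 and 5.72 in heterozygotes and 6.11, 5.99 and 6.21 in knockouts (log2 fold change 0.33, limma adjusted p = 0.356). Tbx6, a factor of presomitic mesoderm, was at 0.23, Hoxb9 at 0.19 and the lowest gene, Hoxc9, at -0.02. The surface ectoderm sum, over 7 genes, was 7627 to 7800 in heterozygotes and 6494 to 7210 in knockouts, with values from Cdh1 at -0.22 to Tfap2c at -0.05. The early neuron sum, over 8 genes, was 1482 to 1553 in heterozygotes and 1398 to 1475 in knockouts, so that the ranges nearly met. Its genes differed in sign, with 3 positive and 5 negative. After adjustment, limma called 0 genes of the marker lists. With no adjustment, p was under 0.05 for 3 higher caudal genes, 3 lower surface ectoderm genes and 1 higher blood gene, Klf1, beside 5.97% higher and 4.66% lower over all probe sets. The 3 caudal genes were dim, in a range of intensity where the median log2 fold change of all probe sets was 0.05 to 0.06. The 3 surface ectoderm genes were bright, in a range where it was -0.04.

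Among neural markers, the neuroepithelial list had a median log2 fold change of 0.02 and sums from 3472 to 3728 that overlapped between genotypes. The early neuron list had a median of -0.04, from Isl1 at -0.19 to Nhlh1 at 0.13. The neural crest list was mixed, with 4 genes positive, 3 negative and a median of 0.05. Its ends were both AP-2 factors, Tfap2b at 0.29, with every knockout pool above every heterozygote pool, and Tfap2a at -0.14, with every knockout pool below. Sox1, Isl1 and Tfap2b were the genes of these 3 lists with an unadjusted p under 0.05. The head mesenchyme, endothelium and heart lists had 0 such genes and medians of -0.03, -0.04 and 0.05. They ran from Prrx1 at -0.06 to Foxc2 at 0.12, from Tek at -0.15 to Tie1 at 0.05 and from Myl7 at -0.10 to Nppa at 0.34. In bulk samples, fewer cells of a type and less RNA per cell cannot be told apart.

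Sex-linked transcripts also differed between pools. Xist, the RNA that coats the inactive X chromosome in females, had its low values in the pools numbered 2, at 4.22 for heterozygotes and 3.74 for knockouts. The other pools lay between 8.82 and 10.17. The Y-linked gene Uty was between 7.17 and 7.60 in heterozygote replicate 2 and all knockout pools, and at 5.77 in the remaining heterozygote pools. Y-linked RNA was thus unbalanced between the genotypes. The sex of the pooled embryos is partly confounded with genotype, and the 2 cannot be fully told apart here. Of the sex-linked list, the Y-linked Eif2s3y had the highest log2 fold change, 0.93, and Xist the lowest. The dimmer Pou3f2 row was highest within its genotype in the pools numbered 2, those with low Xist, and the part of this in its values was not tested. For the brighter row, knockout replicate 2 was the lowest knockout pool.

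**Figure D5:**
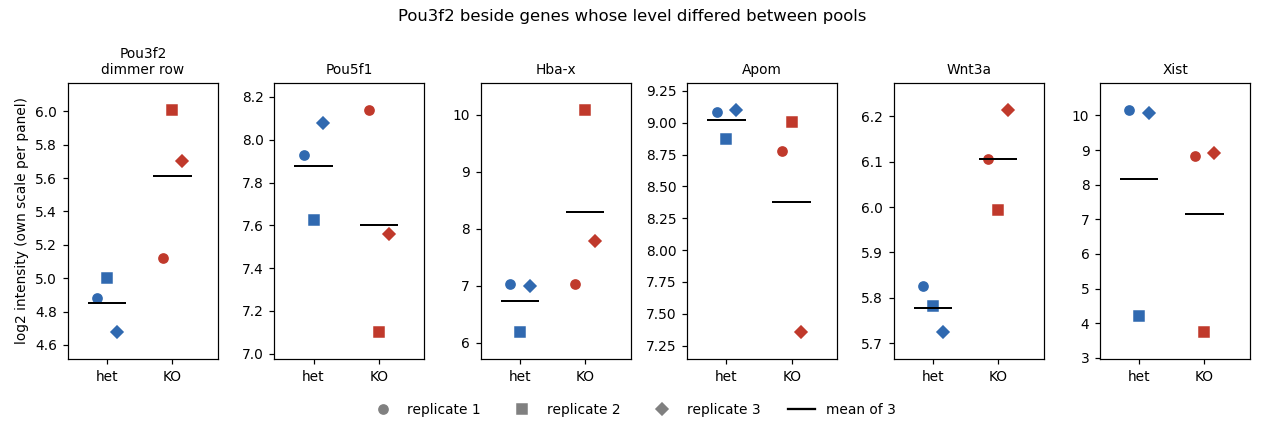
Log2 intensity in each pool of the dimmer Pou3f2 row, Pou5f1, the globin Hba-x, the visceral endoderm gene Apom, Wnt3a and Xist, each on its own scale, with heterozygotes in blue, knockouts in red, symbols for the replicates and lines at the means. Knockout replicate 2 is highest for the dimmer Pou3f2 row at 6.01 and Hba-x at 10.09 and lowest for Pou5f1 at 7.10.

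Genes most like Pou3f2 in their pool pattern were sought on the deviations from the genotype means, which leave the genotype difference out. For the brighter row, candidates were the 10005 probe sets with a mean above the median of all and a spread of at least 0.5 times that of Pou3f2. The closest were Socs2, Cnih1, Hilpda, Tsacc and Pot1b, with a Pearson r over the 6 pools from 0.992 for Pot1b to 0.999 for Socs2. Of these candidates, 128 had an r above 0.9. Unlike Pou3f2, Cnih1, Hilpda, Tsacc and Pot1b had lower means in knockouts. Hilpda was at 7.81, 7.76 and 7.91 in knockouts against 7.98, 7.98 and 8.09 in heterozygotes. Socs2 was nearly level, at 7.31, 7.25 and 7.41 in knockouts against 7.30, 7.30 and 7.42 in heterozygotes. For the dimmer row the closest of 408 candidates were Zfp442, Purb, Dnajc13, Kbtbd11 and Snrpc, from 0.984 for Zfp442 to 0.961 for Snrpc, with 19 above 0.9. All these correlations share the same 6 pools and are given as a description, with no test. With so few pools and so many candidates, a high r can arise between unrelated probe sets.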

How the data were processed

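RNA of 6 pools was hybridized to 1 array each. Per the labels, the authors used Affymetrix Power Tools and its RMA method. Their versions are not given in the sources used here. Deposited as linear values, the intensities (array medians from 58.1 to 62.9) were converted to log2 here. Of 35556 rows, the 21789 with exactly 1 gene symbol were fitted, of which 21698 symbols were updated by gene number through a RefSeq table of GRCm38.p6. A limma 3.58.1 model (lmFit, eBayes; R 4.3.3) compared the genotypes without covariate and with Benjamini-Hochberg adjustment over all probe sets. For a gene on a list, the probe set with the highest mean stood for the gene. The methods of the study used Gene Array Analyzer. Scripts were checked on simulated arrays.

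The members and lists were chosen with earlier results of these data known. Named genes are all member rows, Jarid1b, the other POU genes, the highest and lowest gene of each list and the 5 probe sets most like Pou3f2. Further list and marker genes, and the likeness to the dimmer Pou3f2 row, were chosen after values were seen. Alternatives left out dim probe sets (mean log2 under the median), used all rows, averaged probe sets, changed the scaling, added 16 before log2, changed the variance model or array weights, added the replicate number as a block, or left out each pool. The number of arrays limits the precision, p-values reflect only how these 6 pools vary, and 3 against 3 pools allow no exact permutation p below 0.1. The methods call the pools of 4 heads biological replicates.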

Additional observations from a re-analysis of the deposited data

How the results depend on the processing

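Both Pou3f2 rows had a positive log2 fold change under every alternative that kept them. For most alternatives this sign was fixed in advance, since every knockout pool lay above every heterozygote pool. Leaving out pools, the offset, array weights, the block and the variance model could not reverse it. The brighter row, at 0.34, was 0.26 with 16 added before log2 and 0.55 when its rows were averaged. The dimmer row, at 0.76, ranged from 0.54 with that offset to 1.0 without knockout replicate 1. The count of member rows without overlap, 2, was 1 with probe sets averaged per gene, where the Pou3f2 rows became 1. It was 0 without dim probe sets, where only Pou3f1 remained of the members. This count, added after seeing the data, ranged from 2 to 4 when single pools were left out. No share over all probe sets was computed for any of these alternatives. The signs of Pou3f1, Pou3f3 and Pou3f4 were negative under 1, 4 and 4 alternatives (quantile and cyclic loess normalization among them for Pou3f3 and Pou3f4), and those of Pou4f1 and Pou6f1 under none. Over all probe sets, the adjusted count of 1 ranged from 1 to 2 when pools were left out, and was 2 only without heterozygote replicate 2. At an unadjusted p under 0.05, the 2317 probe sets became 1406 without dim ones, of which 258 were higher, against 1301 of 2317. The higher and lower counts, 1301 and 1016, were 889 and 929 after cyclic loess normalization, 1140 and 1366 with the offset, and 1055 and 1391 with limma's trend and robust options. The causes were not tested. Same-numbered pools had correlations of deviations of 0.00076, 0.106 and -0.013. Heterozygote replicate 2 was best matched by knockout replicate 2, while heterozygote replicates 1 and 3 were best matched by knockout replicates 3 and 1. Taken over all probe sets, these values cannot settle whether the numbers carry a pairing. With the replicate block, 1 probe set passed, and the Pou3f2 values stayed at 0.34 and 0.76. Most member rows were dim, which limits them more than Pou3f1.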
